A study of Mus musculus with 22 samples.

Results

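The interaction of PFOS with inulin is the PFOS effect on an inulin diet minus the PFOS effect on a cellulose diet, gene by gene, in mouse intestinal tissue. It asks where PFOS (perfluorooctanesulfonic acid, a persistent fluorinated surfactant) went with a different expression level according to the fibre eaten. The contrast uses 14 of the 22 libraries of the experiment. The remaining libraries are from mice fed pectin, another fermentable fibre, without PFOS (Pectin, n = 4) or with it (Pectin_PFOS, n = 4). They enter the shared estimate of the spread and a later comparison. All 14 came from wild-type male C57BL/6 mice, an inbred strain, 7 weeks old at the start, fed for 7 weeks an irradiated diet with 8% fibre by weight and fat giving 35%, protein 20% and carbohydrate 45% of its energy. Control (n = 4) ate cellulose, a fibre that gut bacteria ferment little, and Inulin (n = 3) ate inulin, a fermentable fructan. PFOS (n = 4) and Inulin_PFOS (n = 3) ate those same diets and drank water with PFOS, dosed daily at 3 µg for each kg of body weight. A treatment field of every library mentions PFOS, so exposure was read from the group name in the titles. The titles number biological replicates without saying that each is a separate animal, so the p-values measure the spread between the samples of all 6 groups.

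The first group described is the amino acid stress response. In this pathway the kinase GCN2, or other eIF2α kinases, slows translation when amino acids run short or the cell is otherwise stressed, and the transcription factor ATF4 is then made and turns on genes for amino acid synthesis, amino acid transport and transfer RNA charging. In the intestine the same tissue also carries a defence programme: Paneth cells at the crypt base and goblet cells release antimicrobial proteins and mucus, and enterocytes answer microbial and interferon signals. PFOS and related fluorinated acids are known ligands of PPARα, a nuclear receptor that drives fatty acid oxidation, and of the xenobiotic receptors CAR and PXR.

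No gene passed an adjusted p under 0.05 in the interaction (0 of 15763 tested, 0%; edgeR quasi-likelihood test with Benjamini-Hochberg adjustment). The smallest adjusted p was 0.0984, shared by 243 genes, and 246 genes (1.56%) lay under 0.1. At an unadjusted p under 0.05 there were 3099 genes (19.7%), of which 1674 (10.6%) had a higher and 1425 (9.04%) a lower PFOS effect on inulin than on cellulose. The DESeq2 Wald test called 654 genes (4.34% of the 15068 it tested; 331 higher, 2.2%, and 323 lower, 2.14%). The edgeR count depended on single libraries: it was 767 without Control replicate 1 (4.88%; 323 higher, 2.05%, and 444 lower, 2.82%), 17 without Inulin replicate 3 (2 higher, 15 lower), and 0 in each of the other 13 omissions. What follows therefore gives values and counts at the unadjusted level, to be read against those shares of all genes. Of all 15763 genes 8407 had a positive and 7356 a negative interaction, against which counts of positive list members are read. The median log2 interaction over all genes was 0.05. It was 0.03 with the RLE scaling, −0.09 with library totals alone and −0.36 on TPM, so list medians are read against that base.

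The tissue carried ileal markers in every library: the bile acid binding protein gene Fabp6 had at least 25803 counts in each. Of 13 colon genes 7 stayed under 10 counts in every library, with at most 4 counts of Car1 and at most 1 of Hoxb13, Hoxd13 and Aqp8. Total counts lay between 17613322 and 19780265, and the mitochondrial share between 3.74% and 14.9%. PFOS replicate 4 and Control replicate 4 stood apart in ways that touch the results. PFOS replicate 4 had high levels of several proximal small intestine genes but the lowest level of another, Slc40a1. Control replicate 4 had the highest mitochondrial share and high Paneth cell and interferon genes. Its 12 adipocyte markers summed to 2120 CPM, against 167 to 1010 CPM in the other libraries. The median interaction of those markers was 0.62, and −1.21 without Control replicate 4. Fatty acid synthesis genes summed to 3950 CPM in that library, against 464 to 1650 CPM elsewhere. The part of adipose tissue in the lipid gene results was not tested. On the second principal component (18.6% of variance) Inulin_PFOS lay between 31.9 and 33.3 and the other 11 libraries between −32.5 and 14.2. No 2 replicates were the same library: the closest pair differed with a chi-square per degree of freedom of 57.4.

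The ATF4 genes were split between members that set Inulin_PFOS apart from the other 3 groups and members that did not. Of 27 tested amino acid stress response genes, 19 had a positive interaction. At the unadjusted level 9 were higher and 0 lower, and the median was 0.58. In 6 of the 27 the 3 Inulin_PFOS libraries lay above all 11 others, a pattern seen in 2.14% of all genes. The median was 0.37 without Inulin_PFOS replicate 1 and 0.11 on TPM.

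ATF4 binds, together with C/EBP proteins, a short composite element whose core reads TGATGNAA. These letters, on either strand, stood in 3.97% of all 32851 RefSeq promoter windows of 300 bases (250 before to 50 after a start, GRCm38.p6), and in at least 1 window of 1219 of 27025 gene symbols (4.51%). Of the 28 listed stress response genes 25 had a window, and 11 of those held the letters in at least 1 window; the list was put together from known ATF4 targets, so that share is a description. The 200 bases before the start are shown for 3 genes that hold the letters and for Mthfd2, which had the smallest interaction p among genes with a descriptive name and does not hold them. Capitals mark the match.
Asns (chr6:7693210-7693409, minus strand): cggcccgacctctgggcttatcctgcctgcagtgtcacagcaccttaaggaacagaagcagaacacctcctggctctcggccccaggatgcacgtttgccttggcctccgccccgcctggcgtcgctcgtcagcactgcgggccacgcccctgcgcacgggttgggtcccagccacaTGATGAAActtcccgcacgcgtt
Jdp2 (chr12:85599216-85599415, plus strand, 1 of 3 starts): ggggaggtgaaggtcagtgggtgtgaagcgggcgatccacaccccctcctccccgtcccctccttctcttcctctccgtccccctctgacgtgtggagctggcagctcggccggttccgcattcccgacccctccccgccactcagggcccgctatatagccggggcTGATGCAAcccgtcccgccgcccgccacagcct
Pck2 (chr14:55540066-55540265, plus strand): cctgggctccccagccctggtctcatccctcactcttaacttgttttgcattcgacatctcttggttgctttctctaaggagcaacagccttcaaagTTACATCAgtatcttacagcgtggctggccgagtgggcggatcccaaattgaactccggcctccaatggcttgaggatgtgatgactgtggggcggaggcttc
Mthfd2 (chr6:83317605-83317804, minus strand): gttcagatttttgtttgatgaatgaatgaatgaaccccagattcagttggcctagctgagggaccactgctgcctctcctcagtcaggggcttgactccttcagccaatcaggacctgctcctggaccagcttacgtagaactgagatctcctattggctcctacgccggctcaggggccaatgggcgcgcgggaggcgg
In Asns the match begins 23 bases before the start and in Jdp2 33 bases before it, both in the gene's direction. In Pck2 it lies on the opposite strand and begins 103 bases before the start. These are matches of letters, not measured binding.

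Mthfd2 (GRCm38 chr6:83305691-83325908) overlaps the gene model Gm43890 on the same strand and encodes a mitochondrial folate enzyme that feeds one-carbon units to nucleotide synthesis. Its level was 3.77, 2.71, 4.84 and 4.76 CPM (counts scaled to library size with TMM factors) in the 4 Control libraries and 3.97, 4.87, 4.65 and 4.94 CPM in PFOS. It was 2.29, 3.73 and 4.63 CPM in Inulin and 25, 18.9 and 16.8 CPM in Inulin_PFOS. All 3 exposed inulin libraries lay above the other 11, which overlapped each other. The interaction was 2.31 ± 0.41 on the log2 scale (SE; adjusted p = 0.0984), made of 2.51 ± 0.32 on inulin and 0.20 ± 0.27 on cellulose.

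Asns (GRCm38 chr6:7675169-7693254), asparagine synthetase, showed the same layout. Control libraries had 10.9, 13.9, 9.54 and 19.1 CPM, PFOS 14.4, 12.7, 11.6 and 12.6, Inulin 11, 13.7 and 9.76, and Inulin_PFOS 63.0, 31.2 and 46.8 CPM. The lowest exposed inulin library stood above the highest of the other 11. The interaction was 2.10 ± 0.39 (adjusted p = 0.0984), with 2.03 ± 0.30 on inulin and −0.06 ± 0.26 on cellulose. Jdp2, a bZIP repressor of AP-1 and ATF sites, had 24.0, 17.8 and 13.3 CPM in Inulin_PFOS and 3.01 to 8.86 CPM in the others. Its PFOS effect was 2.21 ± 0.28 on inulin and 0.45 ± 0.23 on cellulose, an interaction of 1.76 ± 0.35 (adjusted p = 0.0984).

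Atf5, a stress-induced transcription factor related to ATF4, had 37.4, 27.1 and 31.8 CPM in Inulin_PFOS and no more than 17.4 CPM elsewhere (interaction 1.49 ± 0.35). Atf5 overlaps Nup62 and Il4i1 on the opposite strand. Pck2, the mitochondrial enzyme that makes phosphoenolpyruvate, overlapped: 24.0, 17.6 and 19.5 CPM in Inulin_PFOS against up to 18.4 CPM in Control (interaction 1.21 ± 0.31). Both missed the threshold (adjusted p = 0.0984). Not all members were positive. As 2 examples chosen after their values were seen, Slc3a2, the heavy chain of amino acid exchangers, was at −0.48 ± 0.39 and Ddit4, an inhibitor of mTORC1, at −0.29 ± 0.62.

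**Figure D1:**
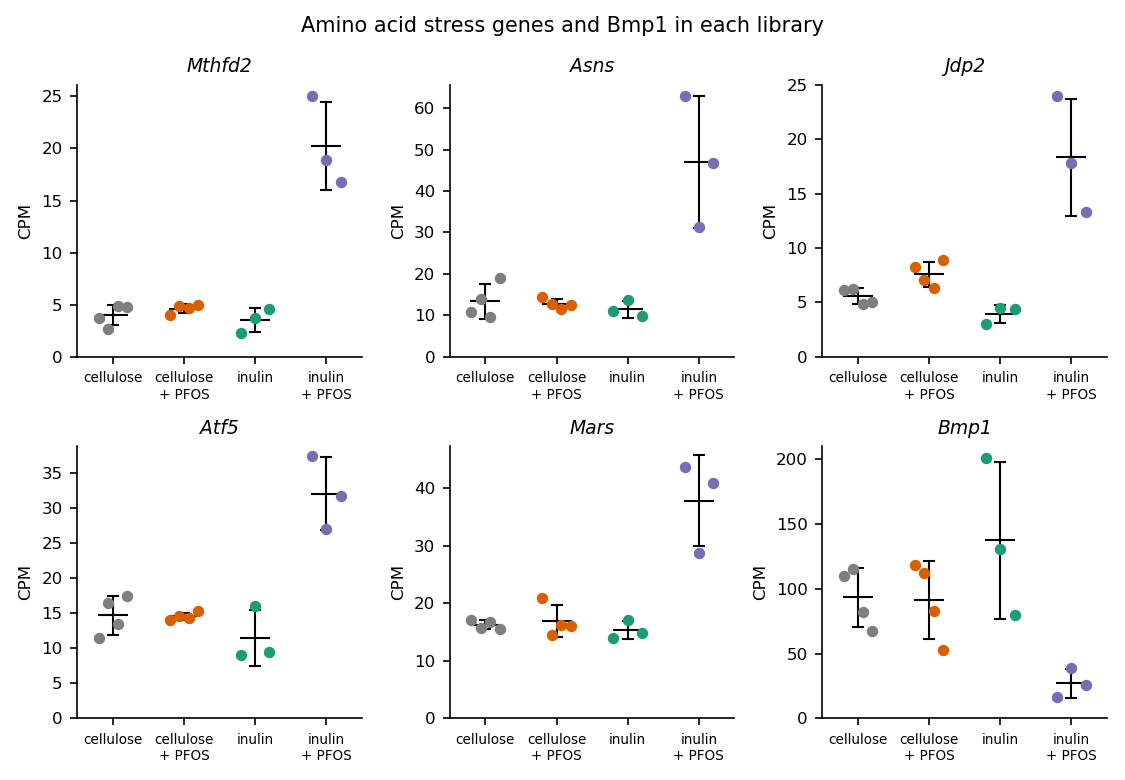
Expression (CPM, linear axis from 0) of Mthfd2, Asns, Jdp2, Atf5, Mars and Bmp1, 1 point per library in the 4 groups, with the group mean and SD as black bars. The 3 libraries of inulin with PFOS lie above all others for the first 5 genes and below all others for Bmp1.

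Enzymes that make serine and one-carbon units leaned the same way with fewer members. Of 18 tested, 14 were positive, 5 were higher and 0 lower at the unadjusted level, and the median was 0.46. That median was 0.86 without Inulin replicate 3, 0.30 without PFOS replicate 2, and on TPM −0.05, where 7 of 16 were positive. Psat1, the phosphoserine aminotransferase, had 16.5, 8.56 and 11.4 CPM in Inulin_PFOS, which overlapped Control (3.12 to 10.6 CPM). Its interaction of 2.20 ± 0.55 (adjusted p = 0.0984) joined 1.5 ± 0.42 on inulin to −0.70 ± 0.36 on cellulose. Psph, the last step of serine synthesis (0.85 ± 0.33, adjusted p = 0.167), and Shmt2, which splits serine in mitochondria (1.04 ± 0.47, adjusted p = 0.229), missed the threshold by more. Psph overlaps Cct6a on the other strand.

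The aminoacyl-tRNA synthetases, which attach amino acids to their transfer RNAs, were the most evenly positive of these 3 groups by share of members. Of 20 cytosolic synthetases 18 were positive, 15 were higher and 0 lower at the unadjusted level, and the median was 0.73, or 0.21 on TPM with 15 of 20 positive. In 10 of the 20 the Inulin_PFOS libraries lay above all 11 others (2.14% of all genes). Their summed level was 1440, 1090 and 1410 CPM in Inulin_PFOS, and 762 to 932 CPM in the other 11 libraries. Mars, the methionyl synthetase, had 43.7, 28.8 and 40.9 CPM in Inulin_PFOS and 14 to 20.9 CPM in the rest (interaction 1.24 ± 0.28, adjusted p = 0.0984); it overlaps Ddit3 on the other strand. The lysyl (Kars, 0.96 ± 0.25), tyrosyl (Yars, 0.99 ± 0.29) and arginyl (Rars, 0.81 ± 0.23) genes followed, with adjusted p from 0.0984 to 0.11. For each of them the exposed inulin libraries did not overlap the others. Chaperones of the endoplasmic reticulum, which belong to another branch of the stress response, were positive in 10 of 20 with a median of −0.02 (−0.19 without PFOS replicate 3, 0.12 without Control replicate 4).

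On each diet taken alone, edgeR called 25 genes for PFOS on inulin (11 higher, 14 lower; 0.159%) and 0 on cellulose (0%), where 842 (5.34%) had an unadjusted p under 0.05. Both counts come from the same fit, and the Inulin and Inulin_PFOS libraries also enter the interaction, so the values below are set side by side and not counted against each other. Mthfd2, Jdp2, Asns, Atf5 and Mars rose on inulin (adjusted p from 0.00108 to 0.0203), as did S100a16 and Hs3st1 (0.0368 and 0.00523). Bmp1, Dnhd1, Atg16l2, Cyp2d26 and Acot1 fell (adjusted p from 0.0136 to 0.0368). A further 8 named genes were added after their values were seen. The nucleoside enzyme Upp1 (2.49), the mast cell protease Mcpt2 (no fold given, since its mean was 0.264 CPM) and the interferon gene Ifit1bl1 (2.46) rose on inulin. The carboxypeptidase subunit Cpn1 (−4.19), the cation transporter Slc22a3 (−2.58), the hydrolases Ces2b (−2.71) and Nceh1 (−1.57) and the P450 gene Cyp4f16 (−2.06) fell. The other 5 were 4 gene models without a descriptive name and 1 olfactory receptor gene.

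These calls rested on the pooled spread and on few libraries. With the Inulin and Inulin_PFOS libraries fitted alone, 0 genes passed (2800 at an unadjusted p under 0.05). The count was 2, 53 and 147 without Inulin replicate 1, 2 and 3, and 2, 10 and 3 without Inulin_PFOS replicate 1, 2 and 3. It was 42 without Control replicate 1, 49 without Control replicate 4, 47 without PFOS replicate 4 and 50 without Pectin_PFOS replicate 1, none of which is in the groups this contrast compares. Mthfd2 and Jdp2 kept their calls on inulin in 26 of 27 alternatives, and Asns in 24. Bmp1 kept its call in 22, Mars, Hs3st1 and Atg16l2 in 20, Atf5 and Dnhd1 in 19, Cyp2d26 in 18, Acot1 in 16 and S100a16 in 14.

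**Figure D2:**
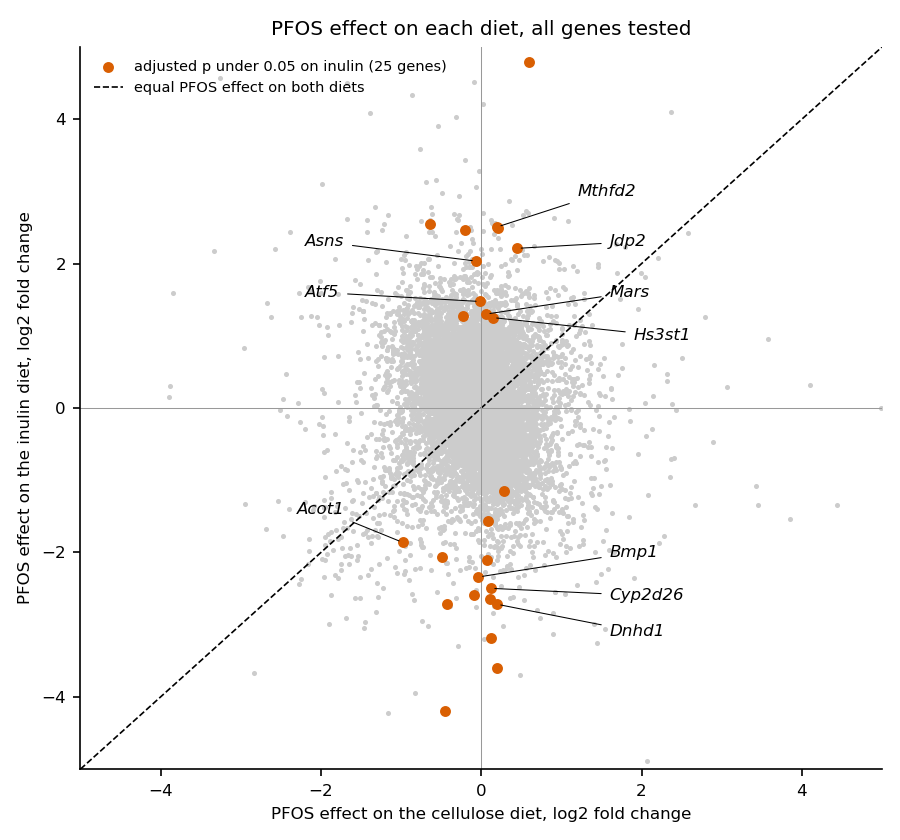
Log2 fold change of PFOS on the cellulose diet (x axis) and on the inulin diet (y axis) for all genes tested, grey; 18 genes fall outside the axes. The 25 genes called on inulin (orange) lie off the dashed line of equal effects; Mthfd2 is at 2.51 on inulin and 0.20 on cellulose, and Acot1 at −1.86 and −0.98.

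Bmp1 led the genes with a negative interaction in the list of BMP genes. It encodes the protease that trims procollagens before fibres form. Levels were 110, 115, 82.0 and 67.3 CPM in Control and 118, 112, 82.9 and 52.5 CPM in PFOS. They were 201, 131 and 80 CPM in Inulin and 16.6, 38.9 and 26.0 CPM in Inulin_PFOS. The exposed inulin libraries lay below all others, while Control and PFOS overlapped. The interaction was −2.31 ± 0.49 (adjusted p = 0.0984), from −2.34 ± 0.38 on inulin and −0.03 ± 0.31 on cellulose. Pcolce, whose protein speeds the cleavage of procollagen by this protease, was at 1.29 ± 0.45 (adjusted p = 0.139). Id1, an inhibitor of differentiation induced by BMP signals, differed in another way. Its 4 Control libraries had 47.3 to 94.4 CPM, PFOS 96.4 to 220 CPM, Inulin 165 to 233 CPM and Inulin_PFOS 140 to 151 CPM. The negative interaction of −1.44 ± 0.36 (adjusted p = 0.0984) joined a positive value on cellulose (1.01 ± 0.24) to −0.43 ± 0.27 on inulin. As a group, 25 genes of BMP feedback and the ID family were split, 12 positive and 13 negative.

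The other genes with the smallest p values in each direction all had adjusted p = 0.0984. Hs3st1, a heparan sulfate sulfotransferase, had 17.3, 13.6 and 17.2 CPM in Inulin_PFOS and 4.73 to 7.28 CPM elsewhere (interaction 1.11 ± 0.24). S100a16, a calcium-binding protein gene, had 78.0, 57.5 and 84.7 CPM against 25.4 to 47.5 CPM (1.5 ± 0.33). For Khdrbs3, an RNA-binding splicing factor (1.55 ± 0.32), and Bex2 (2.25 ± 0.49) the exposed inulin libraries overlapped Control. Bex2 had 1.72 to 4.46 CPM in Control and 1.93, 3.09 and 2.17 CPM in Inulin_PFOS against 0.91 to 2.01 CPM in PFOS and 0.963 to 1.06 CPM in Inulin, and its values on the 2 diets had opposite signs (−1.03 ± 0.32 on cellulose, 1.22 ± 0.38 on inulin).

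On the lower side, 4 genes of the 10 had Inulin_PFOS libraries below the other 11: Bmp1, Dnhd1, Slc20a1 and Atg16l2. Over all genes 1.73% had that layout, but these 10 were chosen by p from the same libraries, so nothing is read from the difference. Slc20a1, a sodium-phosphate cotransporter, had 9.52, 7.51 and 8.72 CPM in Inulin_PFOS and 11.2 to 34.8 CPM elsewhere (−1.76 ± 0.37). Atg16l2, a relative of the autophagy gene Atg16l1, had 2.78, 4.25 and 2.49 CPM against 5.90 to 16.2 CPM (−2.18 ± 0.48), and overlaps Fchsd2 on the other strand. Dnhd1, a dynein heavy chain domain gene, had 1.53, 2.71 and 2.17 CPM against 4.04 to 25.6 CPM (−2.91 ± 0.60). The remaining 6 overlapped Control. They were the mitochondrial iron importer Slc25a37 (−2.05 ± 0.47), the P450 gene Cyp2d26 (−2.61 ± 0.59), the trafficking gene Vps33b (−1.29 ± 0.29), the selenocysteine synthesis gene Sepsecs (−1.03 ± 0.22), the GA-binding protein gene Gabpb2 (−1.31 ± 0.29) and the ciliary gene Ccdc114 (−1.73 ± 0.39). In all 10, the 4 separated genes included, the mean was higher in Inulin than in Control. Cyp2d26, for example, had 129 ± 58.5 CPM in Control, 139 ± 59.1 in PFOS, 300.0 ± 134 in Inulin and 53.1 ± 13.6 in Inulin_PFOS (SD). Reads of Cyp2d26 may be shared with close Cyp2d copies.

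**Figure D3:**
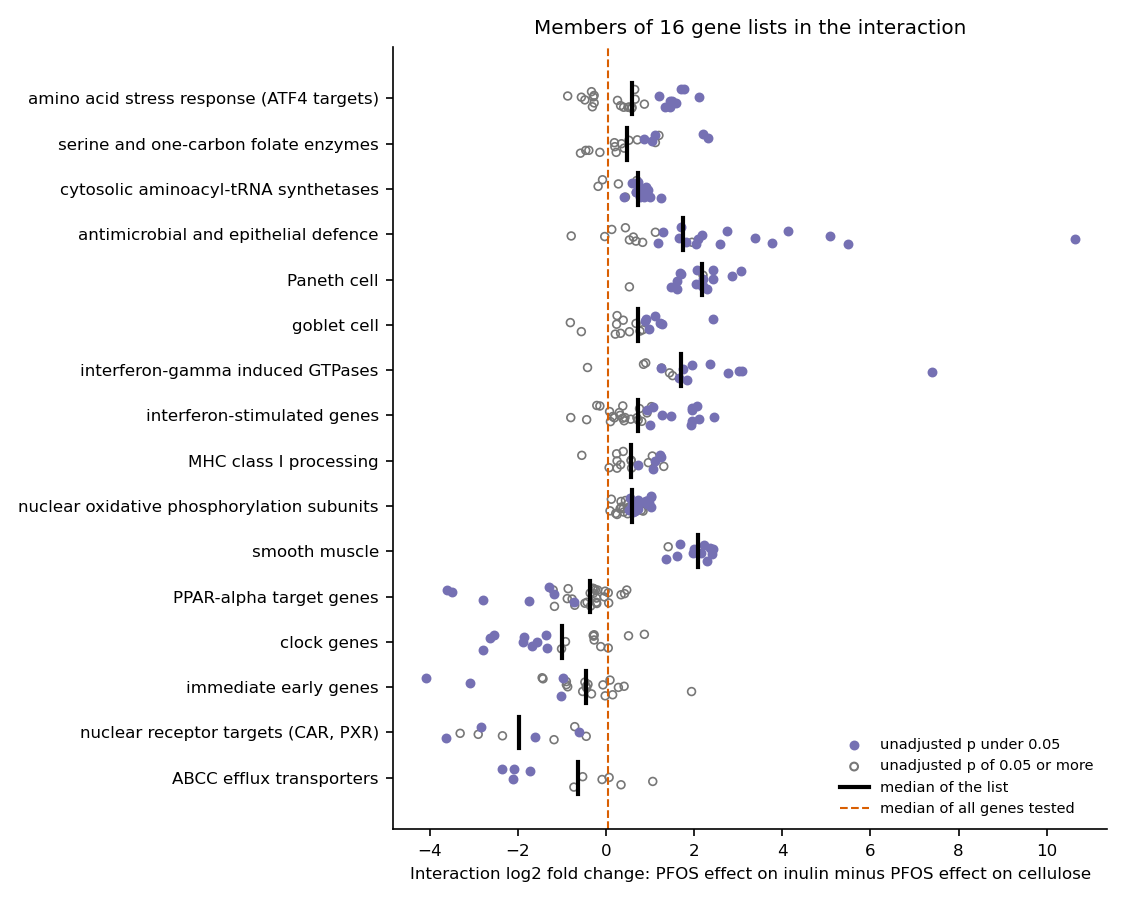
Interaction on the log2 scale (x axis) for each member of 16 gene lists, filled where the unadjusted p was under 0.05, with the list median as a black bar and the median of all genes (0.05) dashed. Defence, Paneth cell, interferon-γ GTPase and smooth muscle members lie mostly to the right and clock and xenobiotic receptor genes to the left; the point beyond 10 is Retnlb, which most libraries barely express.

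Epithelial defence genes were mostly positive. Of 26 tested antimicrobial and defence genes, 24 were positive, 16 were higher and 0 lower at the unadjusted level, and the median was 1.75. The median was 1.30 on inulin and −0.63 on cellulose, so values of opposite sign on the 2 diets entered the difference. In 12 of 26 the exposed inulin libraries lay above all others (2.14% of all genes). The summed level of the list was 107000, 73100 and 82800 CPM in Inulin_PFOS and 5070 to 64900 CPM in the rest; the highest of the rest were Inulin replicate 2 and Control replicate 4 (60200 CPM). Reg3g, a lectin against Gram-positive bacteria, was 1 of the abundant members. It had 951, 1500, 7390 and 21000 CPM in Control, 445 to 2830 CPM in PFOS, 2600, 20100 and 3980 CPM in Inulin, and 26300, 24600 and 22300 CPM in Inulin_PFOS. The exposed inulin libraries lay above all others, and the interaction was 4.12 ± 1.23 (adjusted p = 0.112), of which −2.67 ± 0.82 stood on cellulose.

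Ltf, lactoferrin, an iron-binding defence protein, had 3.85, 4.03 and 2.38 CPM in Inulin_PFOS and under 1 CPM in the other 11 libraries (3.86 ± 0.72, adjusted p = 0.0984). Saa3, an acute phase gene, had 24.2, 14.2 and 19.6 CPM against 0.144 to 5.62 CPM (5.09 ± 1.34, adjusted p = 0.0984). Duox2, whose enzyme makes hydrogen peroxide at the mucosal surface, had 666, 539 and 445 CPM in Inulin_PFOS against 25.5 to 368 CPM. Its interaction was 1.70 ± 0.67 (adjusted p = 0.176), and that of its maturation factor Duoxa2 was 1.95 ± 0.98 (adjusted p = 0.279). For both the unexposed inulin libraries already ranged widely (67.4 to 368 CPM for Duox2). Retnlb, a goblet cell antimicrobial, had 16.8, 2.32 and 0.867 CPM in Inulin_PFOS, 3.65 CPM in Control replicate 4 and at most 0.228 CPM in the other 10, so no fold is given. Igha, the constant region of immunoglobulin A, had 1210, 634 and 1150 CPM in Inulin_PFOS and 40.3 to 366 CPM in the others (1.68 ± 0.80, adjusted p = 0.255). It was positive on inulin (2.18 ± 0.63), while 12 of the 18 B cell and plasma cell markers were negative there. Reg3g, Saa3 and the defensins have near-identical relatives, and their values are uncertain to that extent.

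Markers of the secretory cells were positive too. All 17 Paneth cell markers were positive, 15 of them higher at the unadjusted level, with a median of 2.18; on cellulose 16 of 17 were negative (median −0.79). For none of the 17 did Inulin_PFOS lie above all other libraries. The summed level was 11800 CPM in Control replicate 4 and 2910 to 5110 CPM in the other Control libraries. It was 2070 to 4700 CPM in PFOS, 1480 to 2850 CPM in Inulin and 3030 to 6450 CPM in Inulin_PFOS. Without Control replicate 4 the median was 1.64. Mmp7, which activates defensins, had 24.5, 25, 18.4 and 47.7 CPM in Control, 10.5 to 20.6 in PFOS, 12.0 to 13.8 in Inulin and 40.7, 22.4 and 31.0 in Inulin_PFOS (2.21 ± 0.45, adjusted p = 0.0984). Defa5, an α-defensin with close copies, was at 2.07 ± 0.57 (adjusted p = 0.101) and Pla2g5, a secreted phospholipase of the defence list, at 2.75 ± 0.72 (adjusted p = 0.0984). In bulk tissue, fewer cells of a type and less RNA per cell cannot be told apart.

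Goblet cell markers were positive in 16 of 18, with 7 higher and 0 lower at the unadjusted level and a median of 0.72 (0.31 without Inulin_PFOS replicate 3, 0.25 on TPM). Spink4, a peptide secreted by goblet cells, had 302, 216 and 393 CPM in Inulin_PFOS and 42.9 to 197 CPM elsewhere (2.43 ± 0.52, adjusted p = 0.0984). Clca1, a mucus-processing protease, was at 1.26 ± 0.41 (adjusted p = 0.125). Tuft cell markers had a median of 0.12 (−0.18 without Inulin_PFOS replicate 1, 0.35 without Inulin replicate 1) and enteroendocrine markers one of 0.13 (−0.01 without PFOS replicate 3, 0.36 without Inulin replicate 3), so neither kept its sign. Enterocyte markers had a median of −0.27 (−0.44 without Control replicate 2, −0.10 without Inulin replicate 1).

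Interferon genes were positive too. The list of interferon-γ induced GTPases, which attack the vacuoles of intracellular microbes, has 15 symbols, and 16 gene entries were tested because the symbol Gbp6 stands for 2 gene identifiers in the files. Of the 16, 15 were positive, 10 were higher and 0 lower at the unadjusted level, with a median of 1.70 (1.13 without Control replicate 4, 2.18 without PFOS replicate 4). Irgm2 had 65.7, 64.5 and 25.3 CPM in Inulin_PFOS. It had 29.7 CPM in Control replicate 4, 24.5 CPM in PFOS replicate 4 and 7.04 to 12.4 CPM in the other 9 libraries. The single overlap was Inulin_PFOS replicate 3 against Control replicate 4. The interaction was 2.76 ± 0.69 (adjusted p = 0.0984). Igtp, whose gene overlaps Irgm2 on the same strand and so can share its reads, was at 3.02 ± 0.96 (adjusted p = 0.122), and Gbp2 at 2.35 ± 0.75 (adjusted p = 0.122). Of 33 interferon-stimulated genes 29 were positive, 12 higher and 0 lower (median 0.73; 0.37 without Inulin_PFOS replicate 2, 0.14 on TPM).

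Zbp1, a sensor of Z-form nucleic acids that can start necroptosis, had 91.7, 107 and 51.4 CPM in Inulin_PFOS and 3.61 to 21.4 CPM in the others (2.44 ± 0.79, adjusted p = 0.125). Herc6 (2.07 ± 0.67), which attaches ISG15 to proteins, and Ifit2 (1.95 ± 0.64) likewise did not overlap, and Ifit3b (2.11 ± 0.65), a close copy of Ifit3, did. Their adjusted p lay between 0.115 and 0.127. For class I antigen processing 17 of 18 genes were positive and 5 higher (median 0.58, or 0.12 on TPM with 11 of 18 positive). Psme1, an activator of the proteasome, was at 1.07 ± 0.30 (adjusted p = 0.102), and Psmb10, a subunit of the immunoproteasome, at 1.10 ± 0.39 (adjusted p = 0.142). Of 11 class II genes 9 were positive and none reached an unadjusted p under 0.05.

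Chemokine and inflammation genes were positive in 17 of 22, with 7 higher and 0 lower at the unadjusted level (median 1.03). That median was 1.56 without Inulin replicate 2, 0.74 without PFOS replicate 1, and on TPM 0.26, where 11 of 18 were positive. Ccl8, a chemokine for monocytes and T cells, had 5.27, 7.95 and 10.8 CPM in Inulin_PFOS and 0.144 to 4.48 CPM elsewhere (4.02 ± 1.03, adjusted p = 0.0984). Ptgs2, the inducible prostaglandin synthase, was at 2.32 ± 0.72 (adjusted p = 0.118), and Ccl28, which attracts IgA plasma cells, at 1.48 ± 0.52 (adjusted p = 0.142). Cxcl10, a chemokine induced by interferon, had 18.5 CPM in Control replicate 4 and under 1 CPM in the other 3 Control libraries. It overlaps Art3 on the other strand. Its interaction of 3.89 ± 1.42 (adjusted p = 0.151) included −1.82 ± 0.91 on cellulose.

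**Figure D4:**
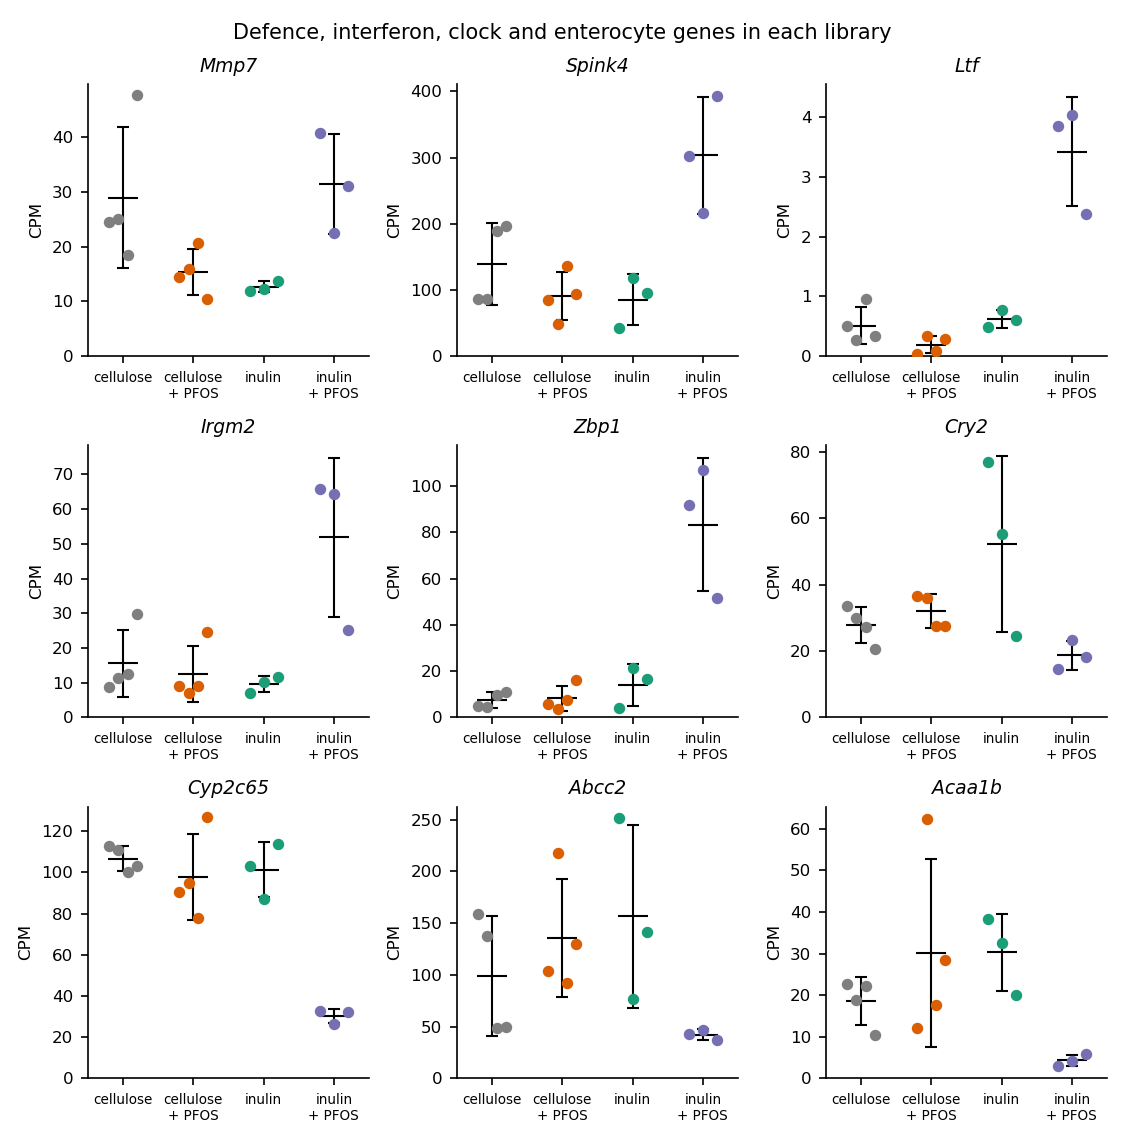
Expression (CPM, linear axes from 0) of 9 genes of defence, interferon, clock and enterocyte groups, 1 point per library with the group mean and SD. Ltf, Spink4 and Zbp1 are highest and Cyp2c65, Abcc2 and Acaa1b lowest in all 3 libraries of inulin with PFOS; Mmp7, Irgm2 and Cry2 overlap.

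The negative side held clock, PPARα and xenobiotic genes. Of 19 clock genes 16 were negative and 9 were lower at the unadjusted level (0 higher), with a median of −1.01: −0.62 on inulin and 0.31 on cellulose. Cry2, a repressor of the clock, had 20.5 to 33.6 CPM in Control, 27.4 to 36.6 in PFOS, 77.1, 55.3 and 24.4 in Inulin, and 14.6, 23.3 and 18.3 in Inulin_PFOS (−1.68 ± 0.41, adjusted p = 0.0984). The Inulin libraries spanned a wide range. Per2 (−1.36 ± 0.37, adjusted p = 0.0984), another repressor, the output factor Tef (−1.86 ± 0.51, adjusted p = 0.1) and Per3 (−2.63 ± 0.83, adjusted p = 0.121), which overlaps Camta1 on the same strand, also overlapped between groups. No source used here states the hour of tissue collection. Immediate early genes, which respond within minutes to stimuli and handling, were negative in 17 of 22 (4 lower, median −0.46). That median was −0.73 without Inulin replicate 2 and −0.33 without PFOS replicate 2. Fos had 51.3, 116 and 94.9 CPM in Inulin_PFOS and 13.2 to 207 CPM in Control, against 174 to 500 in PFOS and 127 to 312 in Inulin (−3.09 ± 0.94, adjusted p = 0.115). Fosb was at −4.09 ± 1.12 (adjusted p = 0.1).

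PPARα targets, which burn and transport fatty acids, were negative in 27 of 32, with 7 lower and 0 higher at the unadjusted level. Their median was −0.36 (−0.61 without Inulin replicate 3, −0.29 without Inulin replicate 1). In 7 of 32 the exposed inulin libraries lay below all others (1.73% of all genes). Acaa1b, a peroxisomal thiolase with a close copy, had 3.06, 4.20 and 5.74 CPM in Inulin_PFOS and 10.5 to 62.4 CPM elsewhere (−3.49 ± 0.80, adjusted p = 0.0984). Pdk4, which spares glucose by blocking pyruvate dehydrogenase, had 12.1, 16.2 and 15.7 CPM in Inulin_PFOS against 20.3 to 95.8 CPM (−1.75 ± 0.69, adjusted p = 0.174). Cpt1a, the gate of fatty acid entry into mitochondria, had 78.5, 61.2 and 61.4 CPM against 79.6 to 165 CPM (−0.86 ± 0.44, adjusted p = 0.283). Ppara itself (−1.30 ± 0.47, adjusted p = 0.149), the peroxisome gene Pex11a (−0.72 ± 0.29, adjusted p = 0.182) and the lipase inhibitor Angptl4 (−1.17 ± 0.64, adjusted p = 0.323) overlapped.

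Acot1, an acyl-CoA thioesterase with close copies, was different. It had 1.42, 1.27 and 1.30 CPM in Inulin_PFOS, 3.57 to 5.67 in Inulin, 1.96 to 3.79 in PFOS and 4.60 to 7.64 in Control. Both PFOS groups lay below their own diet control. It fell on inulin (−1.86 ± 0.37, adjusted p = 0.0368) and was at −0.98 ± 0.30 on cellulose, and the difference of −0.88 ± 0.47 had adjusted p = 0.299. The interaction of this gene was under 2 SE from 0.

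Genes of the CAR and PXR receptors, which handle foreign compounds, were negative in 10 of 10, with 4 lower at the unadjusted level and a median of −1.98 (−1.16 without PFOS replicate 4). In 5 of the 10 the exposed inulin libraries lay below all others (1.73% of all genes). Cyp2c65, an intestinal P450, had the tightest groups: 113, 111, 100 and 103 CPM in Control, 90.6, 94.7, 78.0 and 127 in PFOS, 103, 87.2 and 114 in Inulin, and 32.7, 26.2 and 32.0 in Inulin_PFOS. The first 3 groups overlapped each other, with PFOS the widest. The interaction was −1.61 ± 0.50 (adjusted p = 0.117), from −1.75 ± 0.39 on inulin and −0.13 ± 0.32 on cellulose. Nr1i3, the gene of CAR, was at −2.84 ± 0.91 (adjusted p = 0.124) with 34.2 CPM in PFOS replicate 4 and 3.40 to 12.3 CPM in the other 13 libraries. Nr1i2, the gene of PXR, was at −0.62 ± 0.26 (adjusted p = 0.197). Cyp2c66 had 8.05 CPM in PFOS replicate 4 and at most 0.162 CPM in Inulin_PFOS, too few counts for a fold.

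ABCC transporters, pumps for conjugated compounds, were negative in 7 of 10, with 4 lower and 0 higher and a median of −0.63 (−1.01 without Control replicate 1, −0.37 without Control replicate 3, −1.80 on TPM). Abcc2, the apical pump of glutathione and glucuronide conjugates, had 43.0, 47.0 and 36.8 CPM in Inulin_PFOS and 48.9 to 252 CPM elsewhere (−2.35 ± 0.68, adjusted p = 0.109). Abcc6, linked to ATP release, did not overlap either (−2.12 ± 0.54, adjusted p = 0.0984). Abcc5 (−2.08 ± 0.51, adjusted p = 0.0984) and Abcc10 (−1.72 ± 0.50, adjusted p = 0.108) overlapped, with Inulin libraries from 24.6 to 84.7 and from 23.3 to 55.0 CPM.

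Several markers of the proximal small intestine were high in 1 of the 14 libraries of the contrast. In PFOS replicate 4 the lactase gene Lct had 397 CPM against 0.34 to 5.15 CPM in the other 13 libraries, and the regional factor Gata4 32.2 against 0.369 to 3.51 CPM. Slc28a1, a nucleoside transporter, had 33.4 CPM there and 0.0542 to 11.4 CPM elsewhere, Slc2a2, a glucose transporter from the enterocyte list, 78.2 CPM against 0.736 to 36.2 CPM, and Fabp1, a fatty acid carrier, 105 CPM against 6.18 to 52.5 CPM. The median of the proximal list was −0.79, and −0.25 without that library; without Inulin replicate 3 it was 0.03. Of its 11 tested genes 5 were positive. For Slc28a1 and Slc2a2 the exposed inulin libraries nevertheless lay below all 11 others, with at most 0.34 and 3.68 CPM. Slc40a1, the iron exporter of the duodenum, went the other way, with 140, 72.7 and 115 CPM in Inulin_PFOS and 9.58 to 76.8 CPM elsewhere (2.51 ± 0.75, adjusted p = 0.112). PFOS replicate 4 was its lowest library, at 9.58 CPM. The summed level of the proximal list was 1640 CPM in PFOS replicate 4, 2560 CPM in Inulin replicate 3 and 1840 CPM in Control replicate 2. The trehalase gene Treh was at −1.17 ± 0.50 (adjusted p = 0.205). On pectin, outside these 14 libraries, such genes were uneven too. Gata4 had 5.98 ± 7.94 CPM in Pectin and 20.3 ± 23.8 CPM in Pectin_PFOS (SD). Lct had 6.24 ± 11.3 and 32 ± 46.5 CPM, and Slc2a2 11.1 ± 17.3 and 50.3 ± 53.6 CPM. The part of this unevenness in the later comparison with pectin was not tested.

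**Figure D5:**
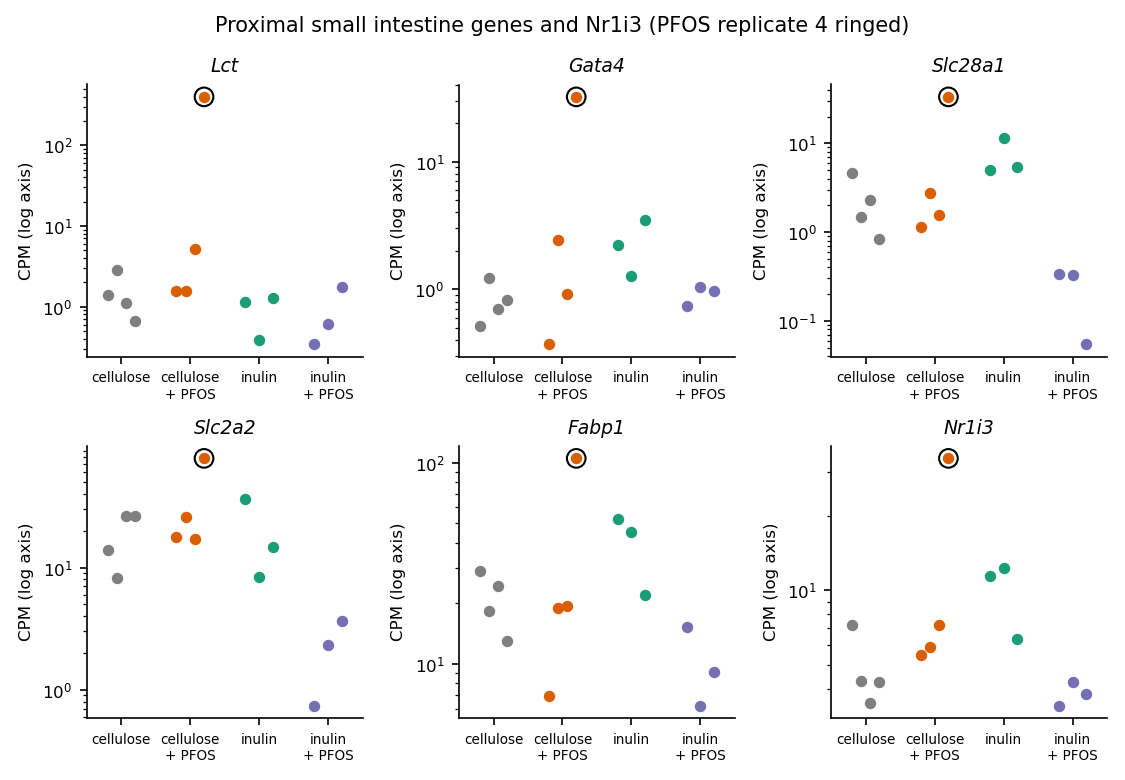
Expression (CPM, log axis) of 5 markers and transporters of the proximal small intestine and of Nr1i3, 1 point per library in the 4 groups; PFOS replicate 4 is ringed. The ringed library is the highest of all 14 in each panel, at 397 CPM for Lct and 34.2 CPM for Nr1i3.

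Nuclear-encoded subunits of oxidative phosphorylation showed small values in 1 direction. All 33 were positive, 16 higher at the unadjusted level, with a median of 0.58; with library totals alone 31 of 33 were positive, and on TPM 20 of 33 (median 0.11). Ndufv2 (1.01 ± 0.34, adjusted p = 0.134) and Ndufb9 (0.75 ± 0.26, adjusted p = 0.139), subunits of complex I, overlapped between groups. The 13 mitochondrially encoded genes had a median of −0.23, which was −0.92 without Control replicate 4 and 0.11 without Inulin replicate 3. Ketone body genes were positive in 5 of 6. Bdh1, which converts the 2 main ketone bodies, had 77.2, 85.1 and 86.2 CPM in Inulin_PFOS and 32.3 to 53.9 CPM in the others (0.98 ± 0.26, adjusted p = 0.0984), and Oxct1, which activates acetoacetate for use, was at 1.07 ± 0.41 (adjusted p = 0.166). Of 29 glutathione and NRF2 genes 19 were positive, with 7 higher and 2 lower. Gpx2, the peroxidase of the gut epithelium, had 981, 533 and 716 CPM against 71.6 to 329 CPM (2.12 ± 0.67, adjusted p = 0.121); it overlaps Fntb on the other strand. Gsr, which regenerates glutathione, was at 1.12 ± 0.34 (adjusted p = 0.113), without overlap.

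Markers of the gut wall beneath the epithelium moved with these groups. All 12 smooth muscle genes were positive, 11 of them higher, with a median of 2.08: 1.36 on inulin and −0.74 on cellulose, where all 12 were negative. Their summed level was 2860, 12500, 5970 and 5620 CPM in Control and 3160 to 5530 CPM in PFOS. It was 2130, 5390 and 1730 CPM in Inulin and 4800, 12800 and 5920 CPM in Inulin_PFOS. Control replicate 2 and Inulin_PFOS replicate 2 were the highest, and no smooth muscle gene separated Inulin_PFOS from the other 11 libraries. Tagln (2.35 ± 0.68, adjusted p = 0.107), Myl9 (2.23 ± 0.58) and Tpm2 (2.41 ± 0.65), contractile genes, had such values (the last 2 adjusted p = 0.0984). The part of tissue composition in the epithelial results was not tested.

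Fibroblast markers were positive in 14 of 15 (7 higher, 1 lower; median 1.17), with Islr at 1.76 ± 0.42 (adjusted p = 0.0984). Enteric neuron and glia markers were positive in 14 of 16 (5 higher, 0 lower; median 1.24, or 0.65 without Inulin_PFOS replicate 2), with Uchl1, a neuronal ubiquitin hydrolase, at 2.19 ± 0.67 (adjusted p = 0.115). Myeloid markers were positive in 18 of 18 (8 higher, median 1.03), with the complement gene C1qc at 1.63 ± 0.59 (adjusted p = 0.146). The myeloid median was 1.74 without Inulin replicate 3, 0.82 without Control replicate 4 and 0.64 on TPM. B cell and T cell markers had medians of 0.08 and 0.41 that did not keep their sign. The first was −1.20 without Control replicate 3 and 1.49 without Inulin replicate 3, and the second −0.54 without Control replicate 3 and 1.22 without PFOS replicate 4. Of the 18 B cell and plasma cell markers 12 were negative on inulin (median −1.65) and 15 on cellulose (median −1.51). Jchain, which joins IgA monomers, had 736, 461 and 820 CPM in Inulin_PFOS, 807 CPM in Control replicate 4 and 41.7 to 478 CPM in the others (2.44 ± 1.07, adjusted p = 0.215).

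Set against the other fermentable fibre, the PFOS effect on inulin differed widely from that on pectin. In that comparison, which uses no cellulose library, edgeR called 4007 genes (25.4%; 1936 higher and 2071 lower on inulin), or 1353 without Inulin replicate 1 and 2172 without Inulin_PFOS replicate 3. With library totals alone the split was 2141 higher and 987 lower, and on TPM 702 and 1755. Mthfd2 (1.86, adjusted p = 0.00672), Jdp2 (1.55, adjusted p = 0.00762), Asns (1.33, adjusted p = 0.0197), Atf5 (1.13, adjusted p = 0.0238) and Mars (0.91, adjusted p = 0.0251) had a higher PFOS effect on inulin than on pectin. Bmp1 had a lower one (−2.98, adjusted p = 0.00376), while Id1 (−0.21, adjusted p = 0.692) and Acot1 (0.02, adjusted p = 0.979) did not pass. The levels on pectin were not those of the cellulose groups. Asns had 35.4 ± 5.49 CPM in Pectin and 57.6 ± 22.6 CPM in Pectin_PFOS (SD, n = 4 each) against 47 ± 15.9 CPM in Inulin_PFOS. Atf5 had 24.5 ± 3.41 and 31.2 ± 10.2 CPM against 32.1 ± 5.17 CPM, and Mars 27.5 ± 3.3 and 36 ± 11.5 CPM against 37.8 ± 7.93 CPM. For these 3 genes Pectin_PFOS was within 1 SD of Inulin_PFOS, and Pectin without PFOS was above the mean of Inulin. Mthfd2 had 9.47 ± 2.15 and 14.8 ± 5.86 CPM on pectin against 20.2 ± 4.25 CPM, and Jdp2 7.48 ± 2.08 and 11.8 ± 2.57 CPM against 18.4 ± 5.4 CPM. Bmp1 had 20 ± 1.22 CPM in Pectin and 31.3 ± 12.6 CPM in Pectin_PFOS, near its 27.2 ± 11.2 CPM in Inulin_PFOS. Dnhd1 (1.75 ± 0.363 and 2.57 ± 0.887 CPM) and Atg16l2 (3.39 ± 0.679 and 3.68 ± 1.45 CPM) were likewise as low on pectin, with and without PFOS, as in Inulin_PFOS. The high and low levels described above set Inulin_PFOS apart from the cellulose and Inulin libraries, and for these 6 genes (Asns, Atf5, Mars, Bmp1, Dnhd1 and Atg16l2) not from Pectin_PFOS by their means and SDs. Other genes were alike in Pectin_PFOS and Inulin_PFOS too. Examples are Kars (71.4 ± 12 and 69.1 ± 10.6 CPM) and Zbp1 (67.3 ± 33.5 and 83.2 ± 28.6 CPM). Reg3g (21500 ± 7550 and 24400 ± 1980 CPM) and Duox2 (583 ± 130 and 550 ± 111 CPM) are others. Some genes were lower in Pectin_PFOS, such as Spink4 (173 ± 35.6 and 303 ± 88.5 CPM) and Ccl8 (1.69 ± 1.37 and 8.02 ± 2.78 CPM). The genes of each kind were not counted. The Inulin and Inulin_PFOS libraries are shared with the interaction described above, so the 2 comparisons are not independent.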

How the data were processed

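RNA was extracted and stranded libraries were sequenced on a DNBSEQ platform, per the labels' protocols; no source used here gives the gut segment or the counting program. The authors deposited an expected (estimated) count and a TPM value per gene and library. Per the submitters' processing notes HISAT, Bowtie2 and build GRCm39 were used; the deposited coordinates nevertheless match GRCm38 (38946 of 46091 genes shared with GENCODE M21 have the same start and end), the build printed here. How reads of similar or overlapping genes were divided is not stated. Besides the overlaps given above, Pcolce overlaps Fbxo24 and Islr overlaps Islr2 on the same strand. Khdrbs3, Dnhd1, Ccdc114, Slc25a37, Pla2g5, Herc6, Ndufb9 and Gsr each overlap a predicted gene entry on the same strand.

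Deposited expected counts were rounded (3.8% to 4.8% of values were fractional). With edgeR 4.0.16 in R 4.3.3, TMM scaling and the default expression filter left 15763 of 46603 genes. A robust quasi-likelihood model with 1 mean for each of 6 groups took in all 22 libraries, which shared 1 estimate of the spread (biological coefficient of variation 31.9%). The contrast was (Inulin_PFOS − Inulin) − (PFOS − Control). Tests were two-sided with Benjamini-Hochberg adjustment over all genes, and a call needed an adjusted p under 0.05. SE was taken as the log2 value over the root of the F statistic. Log2 CPM for the 2000-gene principal components used a prior count of 2. The edgeR and limma steps were tested on simulated data.

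Alternatives were DESeq2 1.42.0, other scalings and filters, limma 3.58.1 on log2(TPM + 1) and log2(TPM + 0.1), replicate blocks, and omission in turn of the 14 libraries of the contrast and of Pectin_PFOS replicate 1; the other 7 pectin libraries were not left out. The 45 lists (841 of 847 entries in the files) are described by counts and medians, without a list test. The naming rule took the 10 smallest p per direction at a mean of at least 1 CPM, without predicted models, up to 4 members of each list by p, and fixed genes; 94 of the 194 it selects are reported, and genes added outside it are named as such. Members and lists were chosen with earlier results of these data known. No label states that replicate numbers pair the samples, so the main fit used no pairing. Promoter sequences are from RefSeq (GRCm38.p6).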

Additional observations from a re-analysis of the deposited data

Results flagged for a closer look

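Within the groups of 4 libraries, 26 of 188 gene and group pairs held a library far from the other 3 (gap over range above Dixon's critical value). For independent, normally distributed values chance gives about 1 in 20. CPM need not be normal, and these genes share libraries and were partly chosen by p, so the count is a description. PFOS replicate 4 was the high library in 11 of the 26 pairs. It had 397 CPM of Lct (next highest 5.15), 32.2 CPM of Gata4 (2.41), 33.4 CPM of Slc28a1 (2.75), 78.2 CPM of Slc2a2 (25.9) and 105 CPM of Fabp1 (19.4), all of the proximal or absorptive intestine. It also had 34.2 CPM of Nr1i3, 8.05 CPM of Cyp2c66, 24.5 CPM of Irgm2, 28.3 CPM of Igtp, 18.1 CPM of Gbp2 and 3.88 CPM of Cxcl10. Control replicate 4 was high in 7 pairs, with 3.65 CPM of Retnlb, 283 CPM of Defa5, 14.6 CPM of Herc6, 18.5 CPM of Cxcl10, 76.8 CPM of Slc40a1, 27.0 CPM of C1qc and 807 CPM of Jchain, and low in 1, with 88.0 CPM of Treh.

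The other libraries gave few such values. Control replicate 1 had 53.1 CPM of Gabpb2 and, on the low side, 37.6 CPM of Duox2. Control replicate 3 had 3.10 CPM of Saa3 and 329 CPM of Gpx2. PFOS replicate 1 had 43.5 CPM of S100a16, PFOS replicate 2 had 34.3 CPM of Fosb and PFOS replicate 3 had 2830 CPM of Reg3g.

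Of 30 genes compared between the fermentable fibres (the 10 of smallest p in each direction and the fixed genes), 23 had a PFOS effect on inulin that differed from that on pectin at an adjusted p under 0.05 (edgeR; 25.4% of all genes did). Most of the 30 were chosen by their interaction p, which uses the same Inulin_PFOS and Inulin libraries, so this share is a description. On the log2 scale 12 were higher on inulin: Igha 3.26, Spink4 2.60, Bex2 2.34, Mmp7 2.27, Mthfd2 1.86, S100a16 1.72, Khdrbs3 1.71, Jdp2 1.55, Asns 1.33, Atf5 1.13, Hs3st1 0.96 and Mars 0.91. The 11 lower ones were Cyp2d26 −4.19, Dnhd1 −3.27, Bmp1 −2.98, Angptl4 −2.42, Slc25a37 −2.37, Atg16l2 −2.22, Vps33b −1.89, Ccdc114 −1.72, Slc20a1 −1.43, Gabpb2 −1.42 and Sepsecs −1.10.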

How the results depend on the processing

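Each of the 94 named genes kept the direction of its interaction in every one of the 27 alternatives that gave it a value (2534 values in all, 122 of them past the threshold). Most of these genes were chosen by their interaction p, and the alternatives reuse the same libraries, so the kept direction is a description. Of 1215 list medians in the alternatives, 132 moved by at least the within-group SD of the list's mean log2 CPM. For the 94 genes, calls past the threshold came mainly from 3 alternatives. The DESeq2 Wald test put 65 of them past it, omission of Control replicate 1 put 48 and omission of Inulin replicate 3 put 9. For the interaction DESeq2 called 654 genes, leaving out a library gave 0 to 767, and every other alternative gave 0. PFOS on the inulin diet gave 519 genes with DESeq2, 0 with only the groups of the contrast, and 12, 9 and 14 with limma on log2(TPM + 1), the same unfiltered, and log2(TPM + 0.1). Leaving out a library gave 2 to 147. PFOS on the cellulose diet gave 1 gene with DESeq2, 8 with limma unfiltered, and 0 to 0 with a library left out. For inulin minus pectin the 3 limma fits gave 2457, 891 and 2669 genes, and omissions 1353 to 4591, with 1 of the 8 pectin libraries among those omitted. With the biological replicate number as a replicate block, the interaction had 0 calls, PFOS on inulin 33 and inulin minus pectin 4422. With the number in the library name as the block these were 0, 41 and 3957. For same-numbered samples the correlation r of their deviations lay between −0.08 and 0.25. Differently numbered pairs were not set beside them, so these values do not show whether a number stands for a shared block. Precision was limited by 3 or 4 libraries a group with a biological coefficient of variation of 31.9%; the smallest detectable difference was not determined.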
